A study of Homo sapiens and Homo sapiens
Mus with 12 samples.

Results

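KEAP1, NFE2L2 (the gene of NRF2) and 7 antioxidant target genes were followed through UM-UC-3 bladder cancer cells in which CDH11, a cadherin, had been knocked down. The 9 genes were chosen by name, as the sensor, the transcription factor and its classical targets NQO1, HMOX1, SLC7A11, GCLC, GCLM, TXNRD1 and SRXN1. Earlier results of these data were known when they were chosen. All 9 were among the 21466 genes with counts in cultured cells, and 8 were among the 26813 human genes of the xenograft tumors, where SRXN1 is not analysed here. UM-UC-3 cells had been infected with a GIPZ lentivirus carrying GFP and either a nonsilencing shRNA (shCtrl) or one of 2 shRNAs against CDH11 (sh#1, sh#2), and GFP-positive cells had been sorted as a pool, so that each group is 1 infected population. RNA was taken from 3 culture wells per group 24 h after plating, and from 5 subcutaneous tumors per group 4 weeks after transplantation. The tumors grew in BALB/cAJcl-nu/nu male nude mice that were 5 weeks old when the cells were inoculated. CDH11 KD means sh#1 and sh#2 together (n = 6 in culture, n = 10 in tumors). The libraries of the shCtrl, sh#1 and sh#2 tumors were sequenced as mixes 1, 2 and 3, so mix and group cannot be told apart in tumors.

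KEAP1 is a sensor of oxidants and electrophiles, and an adaptor that holds NRF2 on a ubiquitin ligase built on the scaffold CUL3 with the RING protein RBX1. The ligase marks NRF2 for degradation by the proteasome, and NRF2 that escapes pairs with small MAF proteins on antioxidant response elements to switch on genes of glutathione synthesis, the thioredoxin system, quinone reduction, heme breakdown and iron storage. KEAP1 and NRF2 are mainly controlled as proteins, which RNA-seq does not measure. The question was whether these genes differ where the CUL3 transcript is low.

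Depth and identity were examined first. Totals were 2273182 to 2777019 counts per cultured library, 414849 to 1248977 human counts per tumor and 94406 to 220238 mouse counts per tumor, so a gene with few counts is measured less precisely in tumors. CDH11 itself had 2 to 4 counts in shCtrl culture, 0 to 1 in sh#1 and 0 to 2 in sh#2, too few to be tested. The paper reports separately that CDH11 mRNA and protein were significantly lower in its UM-UC-3 knockdown cells than in shCtrl. In tumors CDH11 was 16.6 ± 7.65 normalized CPM (counts scaled to a common library size; SD, n = 5) in shCtrl, 4.99 ± 3.18 in sh#1 and 10.1 ± 5.72 in sh#2, and the log2 fold change was -1.67 for sh#1 (q = 0.0260) and -0.73 for sh#2 (q = 0.347), where q is the Benjamini-Hochberg adjusted p of edgeR's quasi-likelihood test. The epithelial keratins KRT8 and KRT18 reached at least 71.1 CPM in every library and the mesenchymal filament VIM at least 2140 CPM in culture, whereas other epithelial and urothelial markers were low or absent: the keratins KRT7 and KRT19 were at most 4.93 CPM and the urothelial factor GATA3 at most 2.46 CPM in culture, and EPCAM, CDH1 and the uroplakins UPK1B and UPK3A had no counts there.

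The antioxidant response element has the core TGACNNNGC, and it is shown because NRF2 in general acts on its targets through this element. In the 1000 bases before RefSeq gene starts (hg38, both strands), the core was present before NQO1, GCLM, TXNRD1, GCLC and KEAP1, and was not found before NFE2L2, SRXN1 or CUL3. HMOX1 and SLC7A11 were not matched to a window. The core is common, with a match in 31.9% of 35116 such windows, while its special case TGACTCAGC was present in 1.4% of them and, of the genes examined, before NQO1. The following stretches read 5′ to 3′ on the strand of the gene, with the 9 bases that match in capitals (on the opposite strand for GCLM).
NQO1: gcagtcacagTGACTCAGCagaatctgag
GCLM: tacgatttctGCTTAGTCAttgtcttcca
TXNRD1: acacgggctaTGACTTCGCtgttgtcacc
The NQO1 stretch (chr16:69726997-69727025, minus strand) has its match 455 bases before the start, within an exon of the divergent transcript NQO1-DT. The GCLM stretch (chr1:93909446-93909474, minus strand) has its match 34 bases before the RefSeq start, and 11 of its bases lie in the first exon of a longer GCLM transcript. The TXNRD1 stretch (chr12:104215670-104215698, plus strand), 99 bases before 1 of 2 starts, lies in no annotated exon. The other TXNRD1 start also had a match, which is not printed. It was 102 bases before that start on the opposite strand (stretch chr12:104286920-104286948), within a TXNRD1 exon. A match in this window is a description of letters and not of binding.

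CUL3 had been singled out because it was low in these cultures, so its level is given without a test. In shCtrl culture, CUL3 was 34.2, 31.2 and 34.7 normalized CPM. It was 5.33, 10.4 and 9.16 CPM with sh#1 and 7.0, 8.12 and 6.82 CPM with sh#2. Every knockdown library was therefore below every shCtrl library, with a log2 fold change of -2.0 (SE 0.21) for sh#1 and -2.18 (SE 0.22) for sh#2. RBX1, the RING partner of CUL3, stayed between 124 and 139 CPM in all 9 libraries, with a log2 fold change of 0.01 (SE 0.09, q = 0.962) for CDH11 KD.

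The 9 genes did not move in 1 direction in culture. With CDH11 KD against shCtrl, 2 of 9 were higher (SLC7A11 and NQO1) and 0 of 9 lower at q under 0.05, where 9.12% of 9859 tested genes were higher and 8.32% lower. At an unadjusted p under 0.05 it was 6 of 9 in either direction. The share of all genes at this cut was not counted, here or below, so the percentages above are no background for it. DESeq2, run on the same 9859 genes, called 3 of 9, where it called 872 genes higher and 707 lower in all. For sh#1 alone, 3 of 9 were higher (SLC7A11, NQO1 and HMOX1) and 1 lower (KEAP1), against 11.8% and 10.6% of all genes. For sh#2 alone, the same 3 were higher and 2 were lower (KEAP1 and SRXN1), against 19.5% and 18.8%. Both hairpins are set against the same shCtrl libraries. The hairpins also differed from each other: 3 genes were higher with sh#1 than with sh#2 (NFE2L2, SLC7A11 and SRXN1) and 2 were lower (HMOX1 and GCLM), against 11.2% and 13.5%. The median log2 fold change of the 9 genes was -0.02 for CDH11 KD, beside 0.00 over all genes tested.

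**Figure D1:**
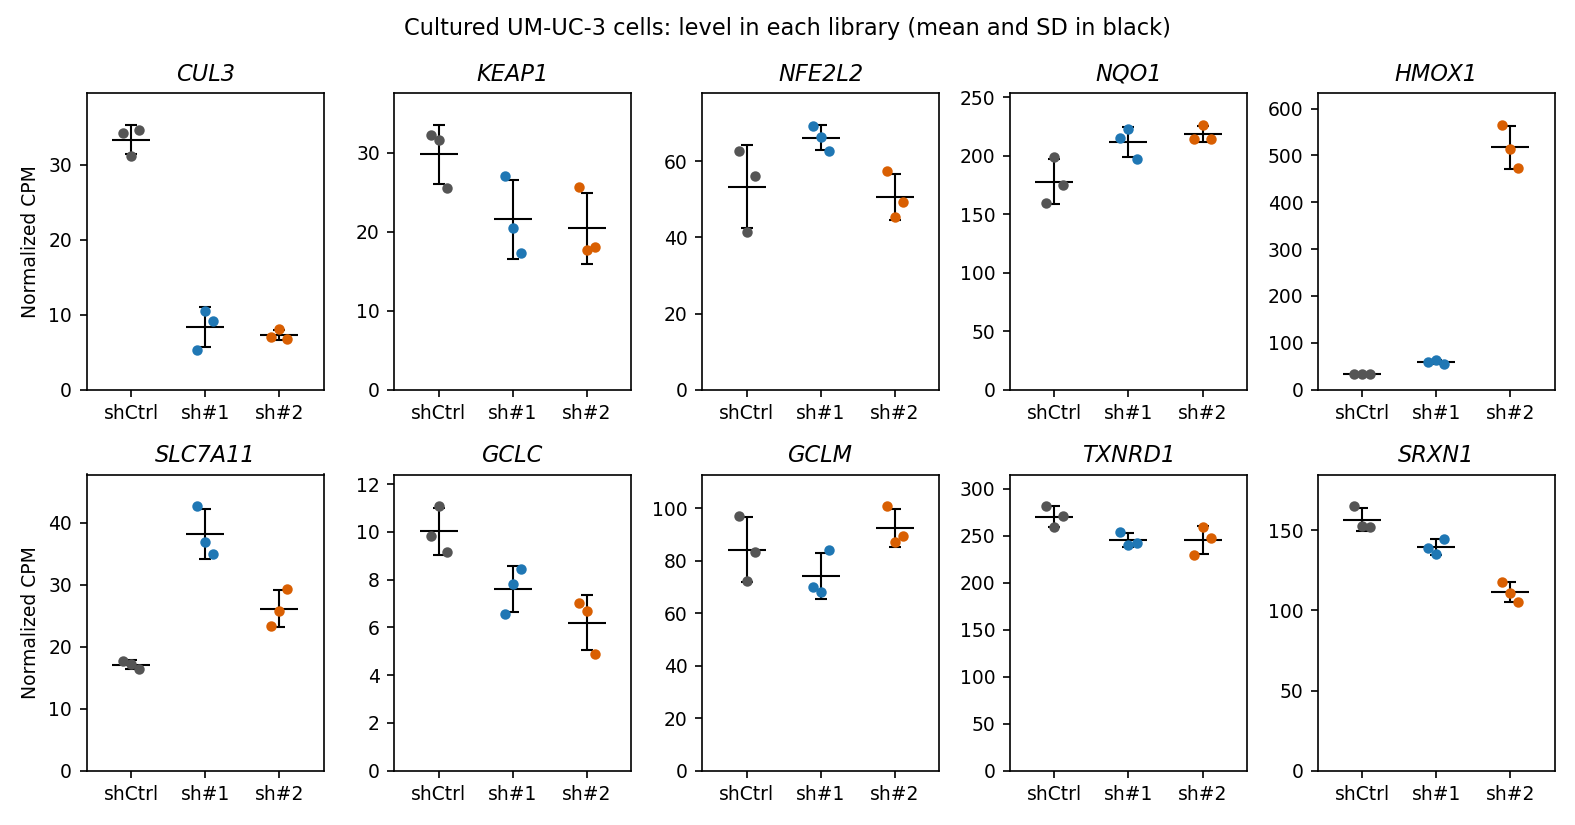
Normalized CPM of CUL3 and the 9 genes in each of the 9 cultured libraries, by group, with the group mean and SD in black and each axis starting at 0. HMOX1 with sh#2 (472 to 565 CPM) stands far above every other library, SLC7A11 is highest with sh#1, and CUL3 is low with both hairpins.

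KEAP1, the adaptor, fell with each hairpin alone and did not pass with both together. Its levels were 32.3, 31.6 and 25.5 CPM in shCtrl, 27.1, 20.4 and 17.3 CPM with sh#1, and 25.7, 17.7 and 18.02 CPM with sh#2. The highest library of each hairpin overlapped the lowest shCtrl library. The log2 fold change was -0.47 for sh#1 (SE 0.17, q = 0.0434) and -0.54 for sh#2 (SE 0.18, q = 0.0167), with both together at -0.50 (SE 0.17, q = 0.0532). These calls rested on few libraries. For sh#1, q rose above the threshold without shCtrl replicate 1 (0.153) or 2 (0.143), or without sh#1 replicate 2 (0.127) or 3 (0.287) and without sh#2 replicate 2 (0.0508). It was 0.194 with DESeq2 and 0.0541 without the low-count filter. For sh#2, it did so without shCtrl replicate 1 (0.0689) or 2 (0.0636) and without sh#2 replicate 2 (0.101) or 3 (0.0874), and with DESeq2 it was 0.0809. With both hairpins together KEAP1 passed in 6 of 15 alternatives, among them the fit of 3 groups (q = 0.00737), and did not in the other 9.

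NFE2L2, which encodes NRF2, was not called against shCtrl with either hairpin. It was 62.6, 41.4 and 56.0 CPM in shCtrl, 69.3, 66.5 and 62.7 CPM with sh#1 and 57.4, 45.4 and 49.2 CPM with sh#2. The shCtrl range is wide and contains all 3 sh#2 libraries, while the 3 sh#1 libraries lie just above it. The log2 fold change was 0.30 for sh#1 (SE 0.12, q = 0.0674) and -0.08 for sh#2 (SE 0.13, q = 0.691). Between the hairpins it was 0.38 higher with sh#1 (SE 0.13, q = 0.0232), a call that was lost without sh#1 replicate 1 (q = 0.0838) or 2 (0.0620), or without sh#2 replicate 2 (0.136) or 3 (0.0754) and with DESeq2 (0.0952), while sh#1 against shCtrl passed without shCtrl replicate 1 (q = 0.0159).

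HMOX1, the inducible heme oxygenase that breaks heme down to biliverdin, iron and carbon monoxide, rose with each hairpin and by far more with sh#2. It was 34.2, 33.2 and 32.8 CPM in shCtrl, 59.9, 63.5 and 55.7 CPM with sh#1 and 565, 515 and 472 CPM with sh#2. The 3 groups did not overlap, and the sh#2 libraries lay far above the sh#1 libraries. Against shCtrl, HMOX1 was 1.78-fold higher with sh#1 (log2 fold change 0.83, SE 0.12, q = 1.65e-07) and 15.5-fold higher with sh#2 (3.95, SE 0.09, q = 2.37e-39). The difference between the hairpins was itself large (log2 -3.12 for sh#1 against sh#2, SE 0.08, q = 3.98e-36), and these 3 calls held in all 14 alternatives tried for each. With the hairpins pooled, the spread between them entered the error, and the log2 fold change of 3.10 (SE 1.14) had a q of 0.11. The pooled call passed in a fit of 3 groups (q = 1.26e-28) and with DESeq2 (q = 0.00547).

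SLC7A11, the cystine transporter that feeds glutathione synthesis, rose with both hairpins and more with sh#1. Its levels were 17.7, 17.2 and 16.4 CPM in shCtrl, 42.6, 36.9 and 34.9 CPM with sh#1 and 23.3, 25.8 and 29.2 CPM with sh#2, with no overlap between the 3 groups. The log2 fold change was 1.15 for sh#1 (SE 0.16, q = 1.36e-07), 0.61 for sh#2 (SE 0.18, q = 0.00535) and 0.92 for both (SE 0.19, q = 0.00332), and these calls held in every alternative tried. The hairpins thus stood in the opposite order to that of HMOX1. The difference of 0.54 between sh#1 and sh#2 (SE 0.16, q = 0.00666) was lost without sh#1 replicate 1 (q = 0.0579), or without sh#2 replicate 1 (0.0502) and with DESeq2 (0.0528).

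NQO1, the quinone reductase often read as the most direct NRF2 target, rose by a small amount. It was 159.8, 198 and 175 CPM in shCtrl, 215, 223 and 197 CPM with sh#1, and 214, 226 and 214 CPM with sh#2. All sh#2 libraries were above shCtrl, and 1 sh#1 library fell just below the highest shCtrl library. The log2 fold change was 0.25 for sh#1 (SE 0.08, q = 0.0126) and 0.30 for sh#2 (SE 0.08, q = 0.00183), or 1.19- and 1.23-fold, and the hairpins did not differ by test (-0.05, SE 0.08, q = 0.715). The sh#2 call held in all 14 alternatives. The sh#1 call was lost without shCtrl replicate 1 (q = 0.118) or 3 (0.0542), or without sh#1 replicate 2 (0.0770) and with DESeq2 (0.0558). The pooled call (0.27, SE 0.09, q = 0.0431) was lost without shCtrl replicate 1 (0.221) or 3 (0.151), or without sh#1 replicate 1 (0.0525) or 2 (0.0606), and without sh#2 replicate 1 (0.0580), 2 (0.0733) or 3 (0.0573). It was also lost with upper quartile scaling (0.0761), without the low-count filter (0.0518), under the minimum of 10 counts (0.0528) and with the replicate block (0.0625), so that it held in 4 of 15 alternatives.

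SRXN1, sulfiredoxin, which repairs overoxidized peroxiredoxins, went the other way. It was 165, 153 and 152 CPM in shCtrl, 139, 135 and 145 CPM with sh#1 and 118, 111 and 105 CPM with sh#2. The groups did not overlap and stood in the order shCtrl, sh#1, sh#2. SRXN1 fell with sh#2 (log2 fold change -0.49, SE 0.08, q = 4.15e-06) and differed between hairpins (0.33 higher with sh#1, SE 0.09, q = 0.00290), both in all 14 alternatives, while sh#1 against shCtrl was -0.16 (SE 0.08, q = 0.146). With the hairpins pooled it was -0.32 (SE 0.11, q = 0.0504), and it passed without sh#1 replicate 1 (q = 0.0355), 2 (0.0489) or 3 (0.0247). The pooled value passed in 6 of 15 alternatives, among them the fit of 3 groups (q = 0.000193), and did not in the other 9.

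TXNRD1, the cytosolic thioredoxin reductase, was not called with either hairpin. It was 281, 259 and 271 CPM in shCtrl, 254, 239.9 and 242 CPM with sh#1 and 229.6, 259 and 247 CPM with sh#2. The log2 fold change was -0.14 with each hairpin (SE 0.07, q = 0.140 for sh#1 and 0.107 for sh#2). For sh#2 it passed in 1 of 14 alternatives, with upper quartile scaling (q = 0.0397). All sh#1 and sh#2 libraries lay below the lowest shCtrl library, by little.

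GCLC and GCLM, the catalytic and modifier subunits of the enzyme that limits glutathione synthesis, were not called against shCtrl with either hairpin. GCLC had 10 to 27 counts per library and was 9.84, 11.1 and 9.15 CPM in shCtrl, 6.56, 7.82 and 8.45 CPM with sh#1 and 7.0, 6.69 and 4.87 CPM with sh#2. All 6 knockdown libraries were below shCtrl, but at this depth the log2 fold change of -0.39 for sh#1 (SE 0.27, q = 0.336) and -0.69 for sh#2 (SE 0.29, q = 0.0585) did not pass. For sh#2, GCLC passed in 2 of 14 alternatives, with upper quartile scaling (q = 0.0446) and under the minimum of 10 counts (0.0291). GCLM was 97.2, 72.2 and 83.5 CPM in shCtrl, 70.1, 68.2 and 84.2 CPM with sh#1 and 101, 87.0 and 89.6 CPM with sh#2. Neither hairpin differed from shCtrl (-0.18, SE 0.11, q = 0.255 for sh#1 and 0.13, SE 0.11, q = 0.351 for sh#2). GCLM was lower with sh#1 than with sh#2 (-0.31, SE 0.11, q = 0.0307), a call lost without sh#1 replicate 1 (q = 0.121) or 2 (0.126), or without sh#2 replicate 1 (0.160) and with DESeq2 (0.107).

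**Figure D2:**
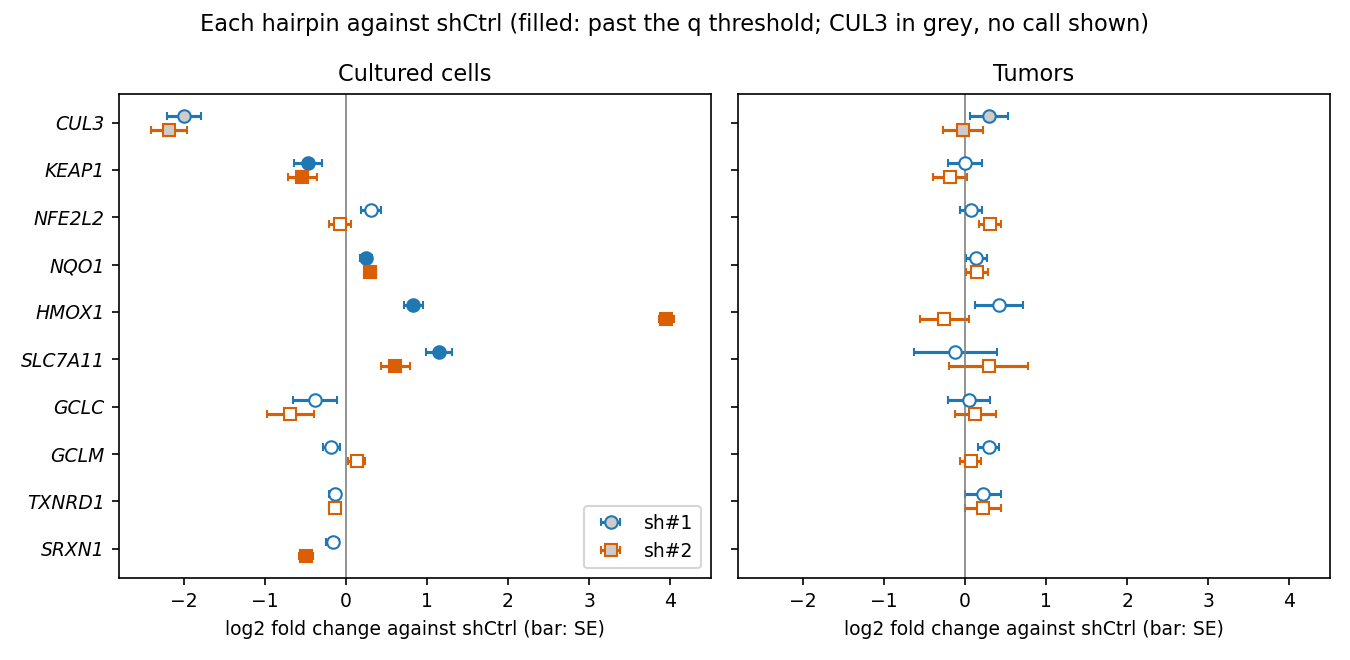
log2 fold change of each hairpin against shCtrl with its SE, in cultured cells (left) and tumors (right), for CUL3 and the 9 genes (8 in tumors); filled symbols are past the q threshold, and CUL3 is in grey, with no call shown, because it was chosen for its low level in culture. In culture HMOX1 reaches 3.95 with sh#2, SLC7A11 and NQO1 are filled on the right of 0 and KEAP1 on the left, and in tumors no symbol is filled.

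Other genes of the pathway were read from 4 lists. Of 25 tested ligase genes and NRF2 regulators, 4 rose with CDH11 KD and, CUL3 aside, 1 fell, where 9.12% of all genes were higher and 8.32% lower, and the median log2 fold change of the list was 0.01. MAFF, a small MAF protein that pairs with NRF2, rose from 18.6 ± 0.92 CPM (SD, n = 3) in shCtrl to 82.6 ± 3.88 with sh#1 and 81.7 ± 6.23 with sh#2 (log2 fold change 2.14, SE 0.12, q = 1.77e-09). SQSTM1, the autophagy receptor p62 that binds KEAP1, rose from 132 ± 15.4 to 179 ± 21.3 and 261 ± 22.2 CPM (0.74, SE 0.17, q = 0.0121). NFE2L1, a relative of NRF2, and BACH1, a repressor of HMOX1, also rose (0.51, q = 0.0263 and 0.55, q = 0.0366), and CREBBP, a coactivator, fell by 0.54 on the log2 scale (q = 0.0173). MAFF held in all 15 alternatives, whereas SQSTM1 was lost without shCtrl replicate 2 (q = 0.0614) or 3 (0.0601), NFE2L1 without shCtrl replicate 1 (0.0643), 2 (0.109) or 3 (0.1001), BACH1 without shCtrl replicate 1 (0.161) or 2 (0.135) or sh#2 replicate 1 (0.0672), and CREBBP without shCtrl replicate 1 (0.112). BACH1 was also lost with DESeq2 (0.0554). For sh#1 alone 4 genes of this list rose and, CUL3 aside, 3 fell, against 11.8% and 10.6% of all genes, and for sh#2 alone 6 rose and 3 fell, against 19.5% and 18.8%. These counts are near the background. The 3 falls with sh#1 (GSK3B, CAND1 and CREBBP) were 0 with DESeq2 and without sh#1 replicate 2, and 1 without shCtrl replicate 2 or 3 or sh#1 replicate 1. The 3 falls with sh#2 (CAND1, CREBBP and NAE1) were 1 (CREBBP) without shCtrl replicate 3 or sh#2 replicate 2 or 3.

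Among 26 tested further NRF2 targets, 4 rose and 1 fell with CDH11 KD, against 9.12% and 8.32% of all genes, and the median was 0.16, beside 0.00 over all genes. The 4 that rose became 9 in the fit of 3 groups, 2 without shCtrl replicate 1 and 1 (FTL) without shCtrl replicate 2 or 3. FTL, the light chain of the iron store ferritin, rose from 1118 ± 20.9 to 1704 ± 109.7 CPM with sh#1 and 1987 ± 144 CPM with sh#2 (0.72, SE 0.10, q = 7.40e-05), in all 15 alternatives. TXN, thioredoxin, rose from 409 ± 5.05 to 466 ± 14.9 and 533 ± 24.3 CPM (0.29, SE 0.09, q = 0.0270). BLVRB, a biliverdin reductase that acts after heme oxygenase, rose by 0.49 (q = 0.0437), OSGIN1, an oxidative stress response gene with few counts, passed as well but not without shCtrl replicate 2 or 3, and ABCC4, an efflux pump, fell by 0.37 on the log2 scale (q = 0.0312). Leaving out any 1 shCtrl library took TXN (q 0.0917 to 0.107) and BLVRB (0.0561 to 0.215) above the threshold, leaving out any 1 sh#2 library did so for BLVRB (0.0744 to 0.0790), and ABCC4 was lost without shCtrl replicate 1 (0.154) or 2 (0.114), sh#1 replicate 3 (0.0507) or sh#2 replicate 3 (0.0556). ABCC4 was also lost with DESeq2 (0.0532) and without the low-count filter (0.0555), and BLVRB with upper quartile scaling (0.0570). With sh#1 4 rose and 2 fell (11.8% and 10.6% of all genes), and with sh#2 10 rose and 1 fell (19.5% and 18.8%). The sh#1 counts were 2 and 0 with DESeq2, 1 and 0 without sh#1 replicate 3, 2 and 1 without sh#1 replicate 1, and 3 and 0 without shCtrl replicate 1, and the 2 falls were also 1 without shCtrl replicate 2 or 3, sh#1 replicate 2 or sh#2 replicate 2. In the direct comparison 0 were higher and 8 lower with sh#1 than with sh#2 by edgeR (11.2% and 13.5% of all genes), the 8 being PGD, TKT, TXN, FTH1, ABHD4, TRIM16, BLVRB and FTL. FTH1, the ferritin heavy chain, was at -0.08 with sh#1 (q = 0.303) and 0.85 with sh#2 (q = 1.78e-19). Of 18 tested other redox enzymes, 1 rose with CDH11 KD and 0 fell by edgeR, against 9.12% and 8.32% of all genes. It was 2 and 1 at an unadjusted p under 0.05, with no share of all genes at that cut, and 0 and 0 by DESeq2. The 1 that rose was the mitochondrial thioredoxin reductase TXNRD2 (0.59, q = 0.0409), which lost its call in 11 of 15 alternatives.

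The list of ATF4, a transcription factor of the amino acid and integrated stress response, and its targets was added because SLC7A11 is also an ATF4 target. With CDH11 KD, 6 of 8 rose and 0 fell by edgeR, against 9.12% and 8.32% of all genes. The median log2 fold change was 0.98, beside 0.00 over all genes. The count was the same at an unadjusted p under 0.05 and by DESeq2, which called 872 genes higher and 707 lower in all. Like the other lists, this list was chosen with earlier results of these data known. ATF4 itself rose from 263 ± 26.3 CPM (SD, n = 3) to 469 ± 53.6 with sh#1 and 467 ± 11.7 with sh#2 (0.83, SE 0.09, q = 8.66e-06). SLC3A2, which encodes the heavy chain that carries SLC7A11 to the membrane, rose from 78.6 ± 4.47 to 148 ± 9.73 and 193 ± 39.0 CPM (1.11, SE 0.15, q = 0.000118). The stress factor DDIT3 (2.36, q = 0.000189), SESN2, a sestrin (2.02, q = 1.96e-05), ASNS, asparagine synthetase (1.15, q = 2.68e-05) and TRIB3, a pseudokinase (0.85, q = 0.00330) rose too. All 6 calls held in all 15 alternatives. As with SLC7A11, SESN2 and ASNS were higher with sh#1 than with sh#2, whereas DDIT3 and SLC3A2 were lower, by the direct test between the hairpins.

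**Figure D3:**
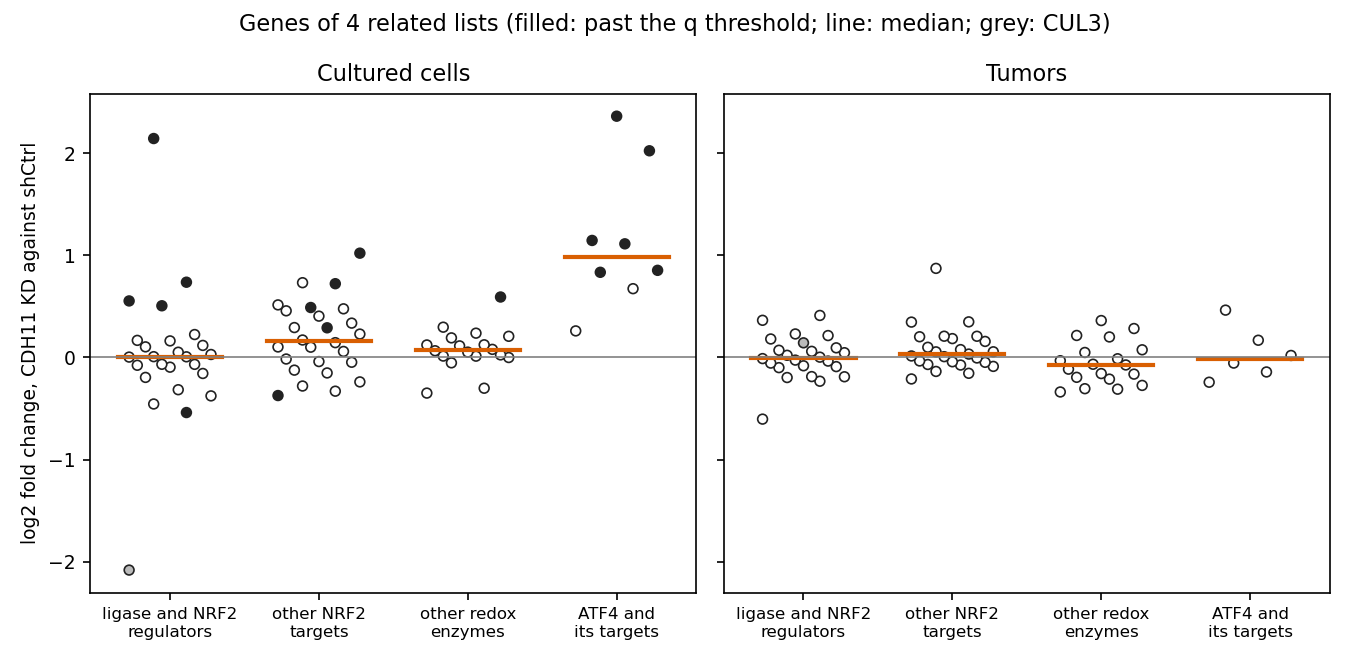
log2 fold change of CDH11 KD against shCtrl for each tested gene of the 4 lists, in cultured cells (left) and tumors (right); points are genes, filled where past the q threshold, CUL3 is grey, and lines are medians. In culture the median of the ATF4 list is 0.98 and that of the other NRF2 targets 0.16, and in tumors no gene is filled.

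The genes most like SLC7A11 over the 9 cultured libraries, by Pearson correlation of log2 CPM (8111 genes averaging 20 counts or more), were CITED2 (r = 0.988), SARS1 (0.960) and CDKN1B (0.957). CITED2 was 27.6 CPM on average in shCtrl, 86.3 with sh#1 and 51.1 with sh#2, the same order of groups as SLC7A11. Those most like NQO1 were MRPL53 (r = 0.964), ZNF143 (0.960) and SLC16A3 (0.957). These values describe 9 libraries that share 3 groups, and any gene with the same order of groups would score high.

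In the tumors none of the 8 measured genes was called in any comparison, and CUL3 was not low. With CDH11 KD against shCtrl, 0 of 8 were called at q under 0.1 by edgeR, 0 at an unadjusted p under 0.05 and 0 by DESeq2, where 0.697% of 9184 genes were higher and 0.817% lower. It was 0 of 8 for sh#1 (background 0.773% and 0.708%), for sh#2 (1.36% and 1.32%) and between the hairpins (0.642% and 0.544%) by edgeR, with 1 gene at an unadjusted p under 0.05 in each (GCLM, NFE2L2 and HMOX1, in this order) and 0 by DESeq2. With so few calls over all genes, 0 of 8 is close to what the background gives. The tumors hold human and mouse cells, and fewer cells of a type cannot be told apart from less RNA per cell. The cultured and tumor tables were normalized separately, and the difference between the systems was not tested.

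CUL3 was 24.9, 21.6, 23.9, 15.1 and 24.5 CPM in shCtrl tumors, 27.7, 17.0, 23.3, 30.4 and 35.4 CPM in sh#1 and 15.6, 26.9, 26.8, 14.9 and 22.9 CPM in sh#2. The 3 ranges overlap, and the log2 fold change of CDH11 KD was 0.14 (SE 0.21, q = 0.827). KEAP1 was 33.7, 32.5, 31.9, 32.9 and 27.6 CPM in shCtrl, 13.9, 32.8, 37.1, 33.7 and 33.3 CPM in sh#1 and 18.5, 33.6, 26.8, 36.3 and 22.9 CPM in sh#2 (-0.09, SE 0.17, q = 0.878). Apart from 1 low sh#1 tumor, which held 5 counts of KEAP1, the sh#1 tumors were at 32.8 to 37.1 CPM and the shCtrl tumors at 27.6 to 33.7 CPM.

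HMOX1 in tumors did not follow the pattern of culture. It was 313, 495, 643, 259.7 and 438 CPM in shCtrl, 874, 697, 440.2, 467 and 419 CPM in sh#1, and 324, 341, 462, 221 and 453 CPM in sh#2. The groups overlap, and the higher mean was that of sh#1 (579 ± 199 CPM, SD, n = 5) rather than sh#2 (360.1 ± 99.9), with 429.9 ± 152 in shCtrl. The log2 fold change was 0.42 for sh#1 (SE 0.29, q = 0.639), -0.25 for sh#2 (SE 0.30, q = 0.779) and 0.67 for sh#1 against sh#2 (SE 0.30, q = 0.477). The sh#1 tumor with the highest HMOX1 (874 CPM) also had the fewest human counts (414849) and the highest share of counts on mouse genes, 30.02%, where the other sh#1 tumors had 10.35% to 18.75%, shCtrl 10.39% to 14.36% and sh#2 12.95% to 18.84%. When mouse counts over human counts entered the fit as a covariate, the log2 fold change of CDH11 KD went from 0.12 (SE 0.29, q = 0.911) to -0.11 (q = 0.936).

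SLC7A11 had 5 to 26 counts per tumor and was 8.83, 10.8, 15.96, 11.6 and 39.8 CPM in shCtrl, 25.0, 9.04, 18.03, 18.5 and 8.08 CPM in sh#1 and 35.5, 6.72, 8.62, 26.7 and 22.9 CPM in sh#2. The 3 ranges overlap, and the log2 fold change of 0.10 had an SE of 0.42 (q = 0.954). With so few counts the SE was wide. NQO1 was measured with less spread, at 158 to 219.7 CPM in shCtrl, 168 to 259.9 CPM in sh#1 and 178 to 261 CPM in sh#2 (0.14, SE 0.11, q = 0.648). NFE2L2 (73.8 to 90.4, 79.4 to 101 and 78.3 to 119.6 CPM in shCtrl, sh#1 and sh#2) was at 0.20 (SE 0.12, q = 0.526).

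GCLC, GCLM and TXNRD1 overlapped between groups as well. GCLM was 152 ± 26.0 CPM (SD, n = 5) in shCtrl, 187 ± 30.9 in sh#1 and 158 ± 19.3 in sh#2 (0.18, SE 0.12, q = 0.560), and TXNRD1 was 1432 ± 402, 1672 ± 393 and 1666 ± 377 CPM (0.22, SE 0.18, q = 0.651). GCLC, with 9 to 26 counts per tumor, was 22.4 ± 6.20, 24.3 ± 8.90 and 24.2 ± 8.29 CPM (0.09, SE 0.22, q = 0.911). In tumors 0 genes of the 4 lists were called with CDH11 KD by edgeR, among 24 ligase genes and regulators, 25 further NRF2 targets, 19 redox enzymes and 6 genes of the ATF4 list. At an unadjusted p under 0.05 it was 3, 2, 4 and 0 genes, with no share of all genes at that cut, and DESeq2 called 0. Leaving out shCtrl replicate 3 gave a call for DPP3 and for FTH1, leaving out shCtrl replicate 5 for DPP3, PRDX3 and GLRX3, and leaving out sh#2 replicate 4 for FTH1. DPP3 and FTH1 were also called without the low-count filter and in the fit of 3 groups, and DPP3 under the minimum of 10 counts. The medians were -0.00, 0.03, -0.07 and -0.02, beside 0.01 over all genes. FTH1 came nearest among the NRF2 targets, with a log2 fold change of 0.87 (SE 0.26, q = 0.108), and was chosen for mention after its values were seen.

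**Figure D4:**
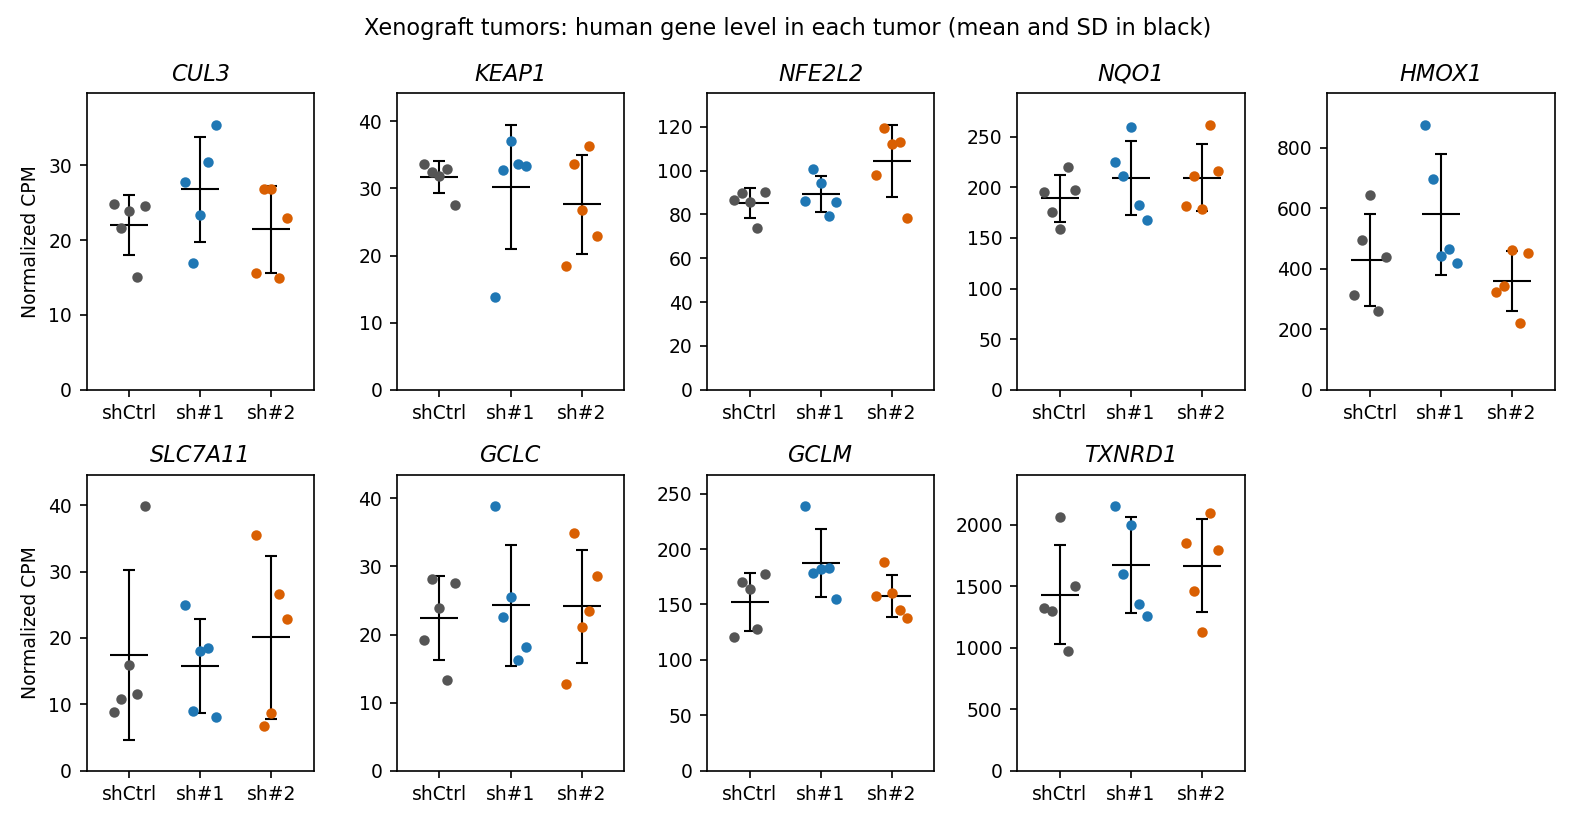
Normalized CPM of CUL3 and the 8 measured genes in each of the 15 tumors, by group, with the group mean and SD in black and each axis starting at 0. The groups overlap for every gene, 1 sh#1 tumor is low for KEAP1 (13.9 CPM) and the same tumor is highest for HMOX1 (874 CPM).

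The mouse counterparts show the same genes in host cells of the tumors. Mouse Hmox1 had 75 to 190 counts per shCtrl tumor, 93 to 315 in sh#1 and 99 to 385 in sh#2, or 773 to 1237, 450.3 to 1770 and 721 to 1748 CPM of mouse counts, so the groups overlapped. Mouse Cul3 was 41.2 to 113 CPM in shCtrl, 53.3 to 232 in sh#1 and 72.2 to 159 in sh#2. Mouse Nqo1 had at most 1 count in any tumor, and Slc7a11 at most 4. Macrophages, which take up red cells, are known to express Hmox1. The 8 macrophage markers (Adgre1, Cd68, Csf1r, Cd163, Mrc1, Lyz2, C1qa, C1qb), all detected in each group, held 0.214% to 0.685% of mouse counts in shCtrl, 0.143% to 0.417% in sh#1 and 0.255% to 0.635% in sh#2. The 4 hemoglobin genes held 0.634% to 1.89%, 0.676% to 1.77% and 0.782% to 2.303%, the 7 fibroblast markers 0.709% to 1.84%, 0.172% to 1.28% and 0.564% to 2.04%, and the 6 endothelial markers 0.0206% to 0.0299%, 0.0121% to 0.0321% and 0.0244% to 0.0455%. Their part in the human values was not tested.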

How the data were processed

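RNA-seq counts were analysed for 9 cultured libraries and 15 xenograft tumors. The authors deposited raw read counts per gene, without normalization. Per the paper, reads of 75 bp were trimmed in CLC Genomics Workbench and mapped with RaNAseq (culture), or trimmed with Trim Galore and mapped with HISAT2 (tumors), to hg38. The counting program, annotation and strand setting are not given in the sources used here, nor how human reads were parted from mouse reads, so reads shared between species, or by overlapping genes, could shift a count. In culture, 13 genes with empty cells were left out.

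Groups followed the sample labels. Counts were fitted with edgeR 4.0.16 in R 4.3.3 (TMM, filterByExpr, robust quasi-likelihood test, Benjamini-Hochberg adjustment over all tested genes). CDH11 KD was compared with shCtrl in a fit of 2 groups, and each hairpin and their difference in a fit of 3 groups, at q under 0.05 (culture) or 0.1 (tumors). SE is the absolute log2 fold change divided by the root of F. Normalized CPM are counts over the TMM-scaled total of tested genes, on the usual CPM scale. In the fit of 3 groups, p-values measure the spread between wells or tumors of 1 infected population per group. In the fit of 2 groups, sh#1 and sh#2 are merged, so the spread between the hairpins also enters the error. Replicates differed by more than sampling noise (chi-square per degree of freedom 1.30 to 2.29 in culture, 1.81 to 6.89 in tumors). The fits were tested on simulated data. The tests of the 9 genes, CUL3 and the list genes were recomputed with DESeq2 1.42.0, with upper quartile scaling, without the low-count filter, on genes holding 10 counts or more in all libraries, with 1 library left out at a time, with a block for the replicate number, with the mean of both hairpins from the fit of 3 groups and, in tumors, with mouse over human counts as covariate. For CDH11, RBX1 and the list genes between the hairpins, only the edgeR result is reported. The members and gene lists were chosen with earlier results of these data known. Beside the 9 genes, CUL3 and RBX1, text names were list genes past the threshold with CDH11 KD and a mean of at least 20 counts (at most 6 per list and system), the 3 genes most correlated with each of the 2 members of smallest q, and mouse counterparts; other names were added after their values were seen. Sequences are from RefSeq gene starts on hg38.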

Additional observations from a re-analysis of the deposited data

Results flagged for a closer look

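In groups of 5 tumors, 3 of 33 sets of values had a sample set apart from the other 4 by more than Dixon's limit, where chance gives about 1 in 20. KEAP1 in 1 sh#1 tumor was 13.9 CPM, while the other sh#1 tumors were at 32.8 to 37.1 CPM. The same tumor had the lowest total of human counts, 414849, while the other sh#1 tumors had 895180 to 1011977. SLC7A11 in 1 shCtrl tumor was 39.8 CPM, while the others were at 8.83 to 15.96 CPM.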

How the results depend on the processing

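Which genes passed the threshold in culture depended on the setting more than their direction did. The number of the 9 genes called with CDH11 KD, 2 in the report, was 1 without the low-count filter and 5 with the mean of both hairpins from a fit of 3 groups, and 1 to 3 with 1 library left out. For sh#1 the 4 calls were 2 with DESeq2 and 2 to 4 with 1 library left out. Between the hairpins the 5 calls were 2 with DESeq2 and 2 to 5 with 1 library left out. For sh#2 the 5 calls were 4 to 5 with 1 library left out, and in tumors the count was 0 throughout. Leaving out 1 library turned the sign of some values that were not called: NFE2L2 ranged from -0.016 to 0.26 for CDH11 KD and from -0.23 to 0.052 for sh#2 in culture, and GCLM from -0.12 to 0.10 for CDH11 KD. In tumors, HMOX1 ranged from -0.026 to 0.31, GCLC from -0.069 to 0.19 and SLC7A11 from -0.10 to 0.55. With the mouse to human covariate in tumors, KEAP1 was at 0.021, HMOX1 at -0.11 and GCLC at -0.12. The cause was not tested. In tumors KEAP1, GCLC and SLC7A11 gave no value under a minimum of 10 counts in every library, and depth limits these genes most.

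The labels do not say whether samples with the same replicate number were handled together. Between such samples, deviations from the group means had correlations of -0.036 to 0.083 in culture and -0.14 to 0.169 in tumors. With the replicate block, 2 of 9 genes were called for CDH11 KD, 5 for sh#1, 5 for sh#2 and 5 between hairpins in culture, and 0 in tumors. The genes called were not all the same: for CDH11 KD the block lost NQO1 (q = 0.0625) and gained KEAP1 (q = 0.0397), and for sh#1 it gained NFE2L2 (q = 0.0467). Of the list genes named for CDH11 KD, TXN (0.0635), BLVRB (0.0702), BACH1 (0.0645) and TXNRD2 (0.0531) lost their calls under the block.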
